A study of Homo sapiens with 6 samples.

Results

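POU5F1, the gene of the POU domain transcription factor OCT4, was followed along its promoter, its upstream enhancers and its body in whole-genome bisulfite sequencing of the established human embryonic stem cell line H9. POU5F1 is 1 of 19819 protein-coding genes measured. It was taken by name, and its regions were set by distance from the start of the canonical transcript (ENST00000259915, gene ENSG00000204531). The transcript has 5 exons and runs on the minus strand of GRCh37 from chr6:31132114-31138459, so that upstream sequence lies at the higher coordinates. The regions were the promoter (500 bp to either side of the start), 9 upstream tiles of 500 bp out to 5 kb, the spans of the proximal (501 to 1500 bp) and distal (1501 to 3000 bp) enhancers, the whole 501 to 5000 bp upstream, and the gene body from 500 bp downstream of the start to the end. They overlap one another and come to 14, with 182 CpGs from the end of the gene to 5 kb upstream.

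The series compared 3 libraries of Conventional cells with 3 of Reset cells. Conventional cells were kept in FGF/KSR, with 10 ng/ml bFGF and 20% KSR. Reset cells came from cells transfected with doxycycline-inducible NANOG and KLF2 and were then kept, without doxycycline, in t2iL+Gö, which holds 1 μM CHIR99021, 1 μM PD0325901, LIF and 5 μM Gö6983. All cultures were grown on mouse embryonic fibroblast feeders at 5% oxygen. The Reset libraries carry the NANOG and KLF2 transgenes and the Conventional libraries are not described as carrying them, so that transgene history and medium cannot be told apart. The replicates are described as biological, without saying whether the Reset ones were separate resettings. No RNA was measured in these libraries, so the cell type could not be checked against expressed markers, and a methylation level gives no level of OCT4 itself.

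OCT4 binds octamer sequences, often beside SOX2, and is required for pluripotent cells to form and to be kept. In the mouse, its gene is driven by a distal enhancer in the inner cell mass and in naive embryonic stem cells, and by a proximal enhancer in the later epiblast and in primed cells. In differentiated cells the promoter and enhancers are silent and carry methylated CpGs. These statements are background and were not measured here.

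Each library held 70186287 to 97822789 calls, where a call is the reading of a CpG cytosine as methylated or unmethylated in a read. That is 2.51 to 3.49 calls per CpG. A level is the percentage of methylated calls in a region, with both strands summed, and over all calls the Conventional libraries had levels of 84.3 to 84.6% and the Reset libraries of 29.5 to 30.3%. At POU5F1 the promoter had 1.42 to 2.21 calls per CpG and the 5 kb upstream 2.14 to 3.33. The exons of POU5F1, parts of which are repeated in pseudogene copies elsewhere, had 1.20 to 2.39 calls per CpG against 2.47 to 3.12 in its introns, and whether reads were lost or misplaced there was not tested. Levels are therefore given over regions, with methylated and total calls where these are few. Intervals are 95% Wilson intervals of the calls of a group summed, and cover counting error only. Where no call was methylated, the level this allows is given as 3 divided by the number of calls. That limit is lower than the upper Wilson limit.

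The sequences that carry the comparison are shown here as the 300 bp with the most CpGs in 4 of the upstream tiles, read from GRCh37 on the minus strand in the direction of the gene, with each CpG in capitals. They hold the patch of intermediate methylation in the proximal span, the tile that was higher in Reset cells, the core of the unmethylated distal span, and the border at which methylation of Conventional cells returned.
Proximal span, 940 to 641 bp upstream, chr6:31139100-31139399: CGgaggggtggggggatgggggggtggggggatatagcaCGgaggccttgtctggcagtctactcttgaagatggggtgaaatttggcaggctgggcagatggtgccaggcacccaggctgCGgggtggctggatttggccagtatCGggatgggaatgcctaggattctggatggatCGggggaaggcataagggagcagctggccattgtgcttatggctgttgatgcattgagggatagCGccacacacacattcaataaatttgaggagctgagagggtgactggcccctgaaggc
Distal span, 1830 to 1531 bp upstream, chr6:31139990-31140289: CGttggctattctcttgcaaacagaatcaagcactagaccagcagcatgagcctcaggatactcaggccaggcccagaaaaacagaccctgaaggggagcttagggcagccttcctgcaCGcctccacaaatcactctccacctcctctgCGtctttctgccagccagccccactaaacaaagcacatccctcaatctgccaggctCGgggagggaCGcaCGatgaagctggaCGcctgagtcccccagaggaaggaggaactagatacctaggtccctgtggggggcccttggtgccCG
Distal span, 2365 to 2066 bp upstream, chr6:31140525-31140824: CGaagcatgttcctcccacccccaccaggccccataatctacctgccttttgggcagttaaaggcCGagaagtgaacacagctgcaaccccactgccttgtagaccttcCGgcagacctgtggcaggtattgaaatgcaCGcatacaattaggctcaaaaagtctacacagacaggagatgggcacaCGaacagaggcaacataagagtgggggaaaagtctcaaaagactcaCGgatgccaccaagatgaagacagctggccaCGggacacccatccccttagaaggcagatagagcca
Border, 3378 to 3079 bp upstream, chr6:31141538-31141837: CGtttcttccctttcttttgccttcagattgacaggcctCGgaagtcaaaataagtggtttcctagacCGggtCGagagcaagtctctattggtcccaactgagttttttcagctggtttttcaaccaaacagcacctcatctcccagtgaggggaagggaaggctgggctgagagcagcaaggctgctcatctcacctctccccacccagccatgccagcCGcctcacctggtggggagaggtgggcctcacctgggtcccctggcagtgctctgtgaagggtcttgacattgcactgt

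In the annotation, the whole 5 kb lies in an intron of a longer POU5F1 transcript, which starts at position 31148508 of chromosome 6. The proximal and distal stretches overlap no annotated exon. The border stretch overlaps the last exon of PSORS1C3, a long noncoding RNA on the same strand (chr6:31141512-31141810). In Conventional cells, 18 of 71 calls were methylated in the proximal stretch, 0 of 90 and 1 of 92 in the distal ones and 30 of 49 at the border. In Reset cells the same stretches had 4 of 41, 6 of 50, 0 of 69 and 3 of 48.

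The promoter was the first comparison, since it asks whether the start of an active pluripotency gene changed at all on resetting. Its window (chr6:31137960-31138959, 33 CpGs) was low in both states and lower in Reset cells. Methylated calls were 6 of 52, 4 of 73 and 7 of 70 in the Conventional libraries and 0 of 64, 2 of 67 and 0 of 47 in the Reset libraries. The groups did not overlap. The level was 9.01% ± 3.15 (SD, n = 3) in Conventional and 0.995% ± 1.72 in Reset cells, a difference of -8.01 points (adjusted p = 0.0299, from a quasi-binomial fit over all genes whose dispersions were squeezed by limma). The same call was made for 39.1% of the promoters of 18916 genes tested. Among the 12001 promoters under 10% in Conventional cells, as that of POU5F1 was, it was made for 10.8%. The POU5F1 call was lost, with adjusted p from 0.0766 to 0.115, without Conventional replicate 1 or 3 or Reset replicate 1 or 3.

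Conventional methylation at the promoter sat before the start site rather than after it. In the 500 bp upstream, the Conventional libraries were at 21.7, 7.69 and 26.1% over 8 CpGs and the Reset libraries at 0, 7.69 and 0%. The ranges met at 7.69% (two-sided exact permutation test, p = 0.2), and 6 of the 8 CpGs were lower in Reset cells. In the 500 bp downstream, which is mostly exon 1, 4 of 123 Conventional calls and 0 of 115 Reset calls were methylated, and the latter allows a level of up to 2.61%. Of those 4 calls, 3 fell on the CpG 365 bp downstream of the start.

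**Figure D1:**
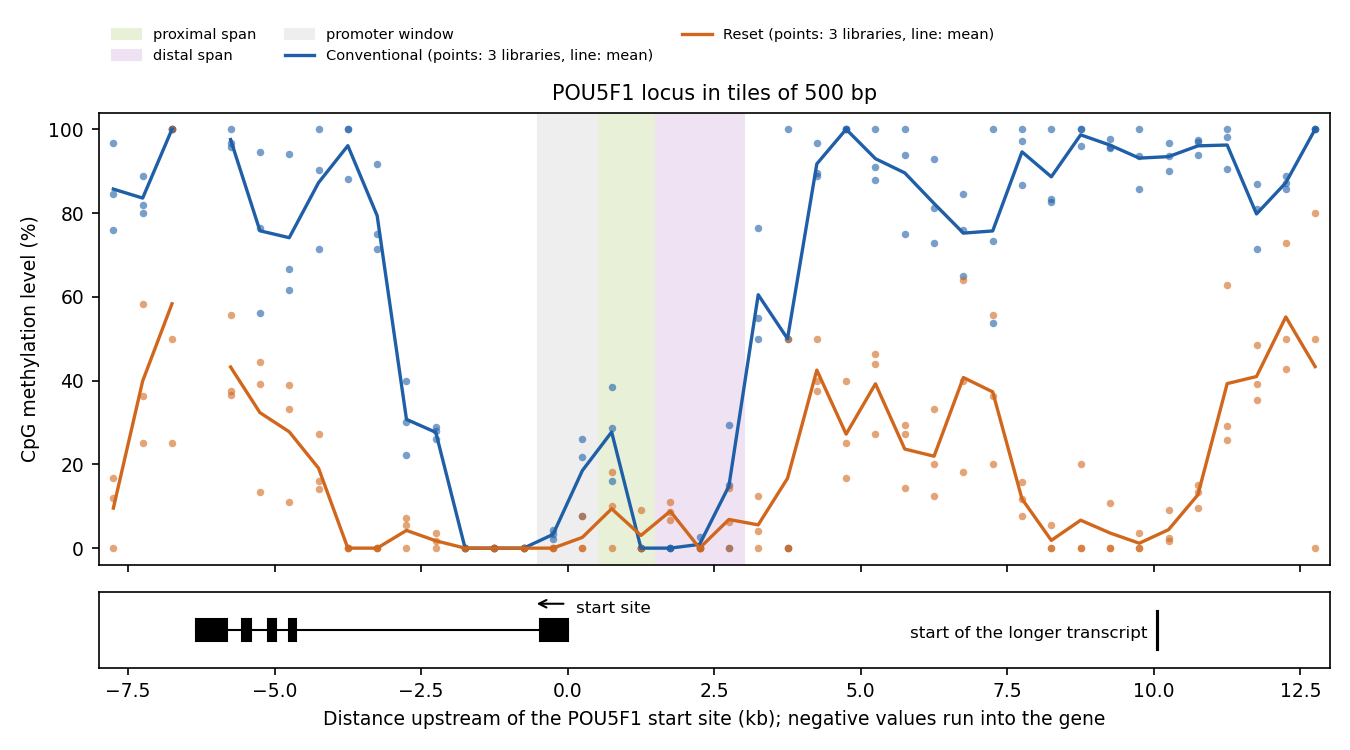
CpG methylation level (%) in tiles of 500 bp against distance from the POU5F1 start site in kb, with positive values upstream and the exons drawn below. Points are the 3 libraries of each group and lines their means; both groups lie at 0 from 500 to 1999 bp downstream of the start, while Conventional cells are at 7.69 to 26.1% in the tile just upstream of it and rise to 88.9% or more in every library 4001 to 4500 bp upstream, where Reset cells lie between 37.5 and 50%.

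The proximal enhancer span (chr6:31138960-31139959, 12 CpGs) held intermediate methylation in Conventional cells. The Conventional libraries were at 24.4, 11.1 and 22.9% and the Reset libraries at 0, 7.14 and 13.6%, so that the ranges overlapped. The means were 19.5% ± 7.26 and 6.93% ± 6.82 (SD, n = 3), and the difference of -12.5 points missed the threshold (adjusted p = 0.0542), where 86.2% of genes passed it as lower in the same span. It passed with edgeR's quasi-likelihood test (adjusted p = 0.0251), with Fisher's exact test on summed calls (adjusted p = 0.0224), without Conventional replicate 2 (adjusted p = 0.0221) and without Reset replicate 3 (adjusted p = 0.0279).

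The methylated calls of that span fell in its inner tile. From 501 to 1000 bp upstream (7 CpGs), the Conventional libraries had 10 of 26, 5 of 31 and 8 of 28 methylated calls and the Reset libraries 0 of 15, 2 of 20 and 2 of 11. The level was 27.7% ± 11.2 in Conventional and 9.39% ± 9.11 in Reset cells, which passed the threshold (adjusted p = 0.0392). The ranges overlapped (two-sided exact permutation test, p = 0.2). A tile moved by 250 bp, from 751 to 1250 bp upstream, differed by -5.40 points and was not called (quasi-binomial fit, adjusted p = 0.400). The call at 501 to 1000 bp was lost without Conventional replicate 1 or 3 or Reset replicate 1 or 2 (adjusted p of 0.0683 to 0.187). It was also lost with the replicate number as a block (adjusted p = 0.0553) and with the dispersion prior taken over all tiles (adjusted p = 0.0624). The CpG 818 bp upstream was the most methylated of this tile in Conventional cells, with 7 of 16 calls, against 0 of 5 in Reset cells. From 1001 to 1500 bp upstream, 0 of 36 Conventional and 1 of 31 Reset calls were methylated, which was too few calls in 1 Conventional and 1 Reset library for the test.

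The distal enhancer span (chr6:31139960-31141459, 25 CpGs) was nearly unmethylated in both states. Methylated calls were 0 of 95, 3 of 84 and 6 of 80 in the Conventional libraries and 2 of 57, 2 of 60 and 5 of 72 in the Reset libraries. The level was 3.69% ± 3.75 in Conventional and 4.60% ± 2.04 in Reset cells (SD, n = 3), and the ranges overlapped. The difference of 0.905 points did not pass the threshold (adjusted p = 0.585), and its sign turned without Conventional replicate 1 (-0.94) or Reset replicate 3 (-0.269). With intervals of 1.84 to 6.47% and 2.53 to 8.80% from the summed calls, a change of a few points in either direction was not detectable at this depth.

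Most other genes were methylated there in Conventional cells. Over the same span, 96.1% of 18830 genes were lower in Reset cells, with a median level of 89.7% in Conventional and 30.9% in Reset cells. A Conventional level below that of POU5F1 was found in 293 genes, or 1.56%. Of the 541 genes under 10% in Conventional cells, 106 were lower and 223 higher in Reset cells. POU5F1 was 1 of the remaining genes under 10%, with no call in either direction.

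**Figure D2:**
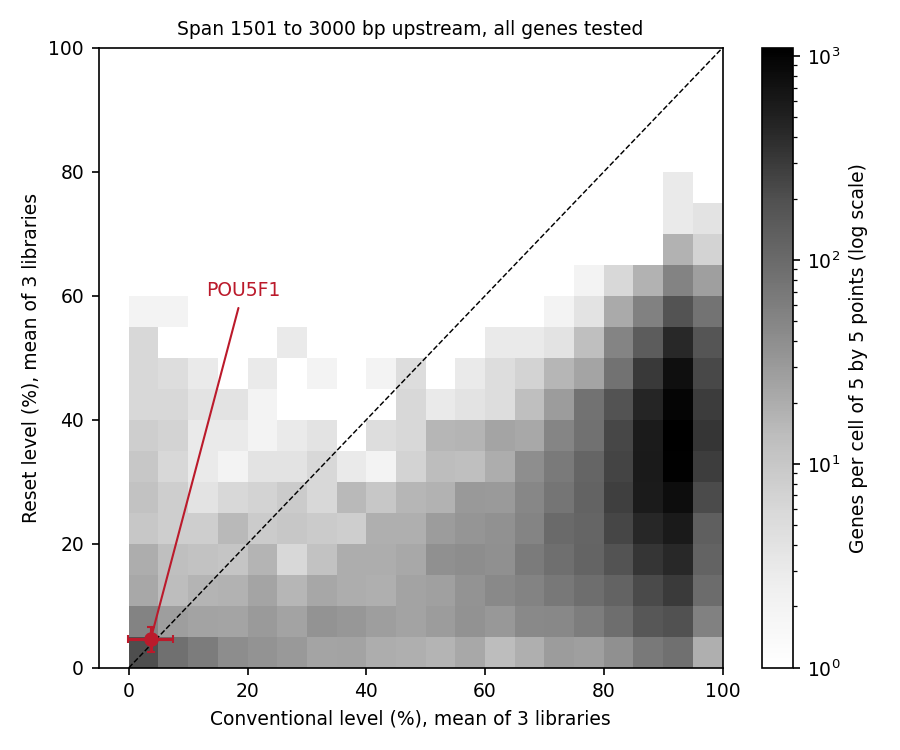
Conventional (x) against Reset (y) methylation level (%) of the span 1501 to 3000 bp upstream over all genes tested, as the number of genes per cell on a log grey scale, with POU5F1 in red (mean and SD of 3 libraries per group). Most genes lie below the dashed line of equal levels, and POU5F1 lies in the corner near 0 on both axes, at 3.69% and 4.60%.

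Within the distal span, methylated calls of Conventional cells were gathered on a pair of CpGs. In Conventional cells 22 of the 25 CpGs had no methylated call, and 8 of the 9 methylated calls fell on the CpGs 2717 and 2726 bp upstream, with 4 of 11 each. In Reset cells those CpGs had 2 of 9 and 1 of 8. The stretch from 1001 to 2500 bp upstream (25 CpGs) is not 1 of the 14 regions and cuts across the proximal and distal spans. It leaves out the tiles to either side, where 23 of 85 and 8 of 47 Conventional calls were methylated. Its low Conventional level thus follows from its bounds, and the intervals are no test of a rise. In this stretch 1 of 248 Conventional calls was methylated (0.403%, interval 0.071 to 2.25%). Reset cells had 7 of 176 there (3.98%, interval 1.94 to 7.98%).

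Most of those 7 calls came from a single tile, 1501 to 2000 bp upstream (chr6:31139960-31140459, 11 CpGs). The Conventional libraries had 0 of 57, 0 of 27 and 0 of 26 methylated calls and the Reset libraries 1 of 15, 2 of 23 and 3 of 27. All 3 Reset libraries were thus above all 3 Conventional ones, at 8.82% ± 2.23 (SD, n = 3) against 0, which allows up to 2.73%. The difference passed the threshold as higher in Reset cells (adjusted p = 0.00486, and 0.00567 to 0.0289 without each library in turn). A rise was called in 2.36% of 98799 upstream tiles. Most tiles started high, with a Conventional median of 90.0% at 1501 to 2000 bp, whereas a tile at 0 could not fall. Over the whole distal span, 223 of the 541 genes under 10% in Conventional cells were higher in Reset cells. The 6 methylated calls lay on the CpGs 1596, 1609, 1623 and 1679 bp upstream, all in the printed stretch and all read from the minus strand. The calls are not linked to reads, so neighbouring methylated calls in a library may come from a single read. A tile moved by 250 bp, from 1751 to 2250 bp upstream, lies beyond all 6 and had no methylated call in either state. The next shifted tile, nearer to the gene, holds all 6 and had too few calls in Reset replicate 1 for the test.

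Of the 9 upstream tiles, 5 had at least 10 calls in every library, of which 2 were lower and 1 higher in Reset cells, where 87.7% of all tiles tested were lower. The remaining 2, from 2001 to 2500 and from 2501 to 3000 bp upstream, were at 0.901% and 14.8% in Conventional and at 0 and 6.85% in Reset cells (adjusted p of 0.388 and 0.234). In the latter, the Conventional libraries had 0 of 10, 3 of 20 and 5 of 17 methylated calls and the Reset libraries 1 of 16, 0 of 14 and 2 of 14. Its difference of -7.96 points became -0.655 without Conventional replicate 3 and -15.4 without Conventional replicate 1. In the tile from 2001 to 2500 bp, 0 of 80 Reset calls allow a level of up to 3.75%.

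**Figure D3:**
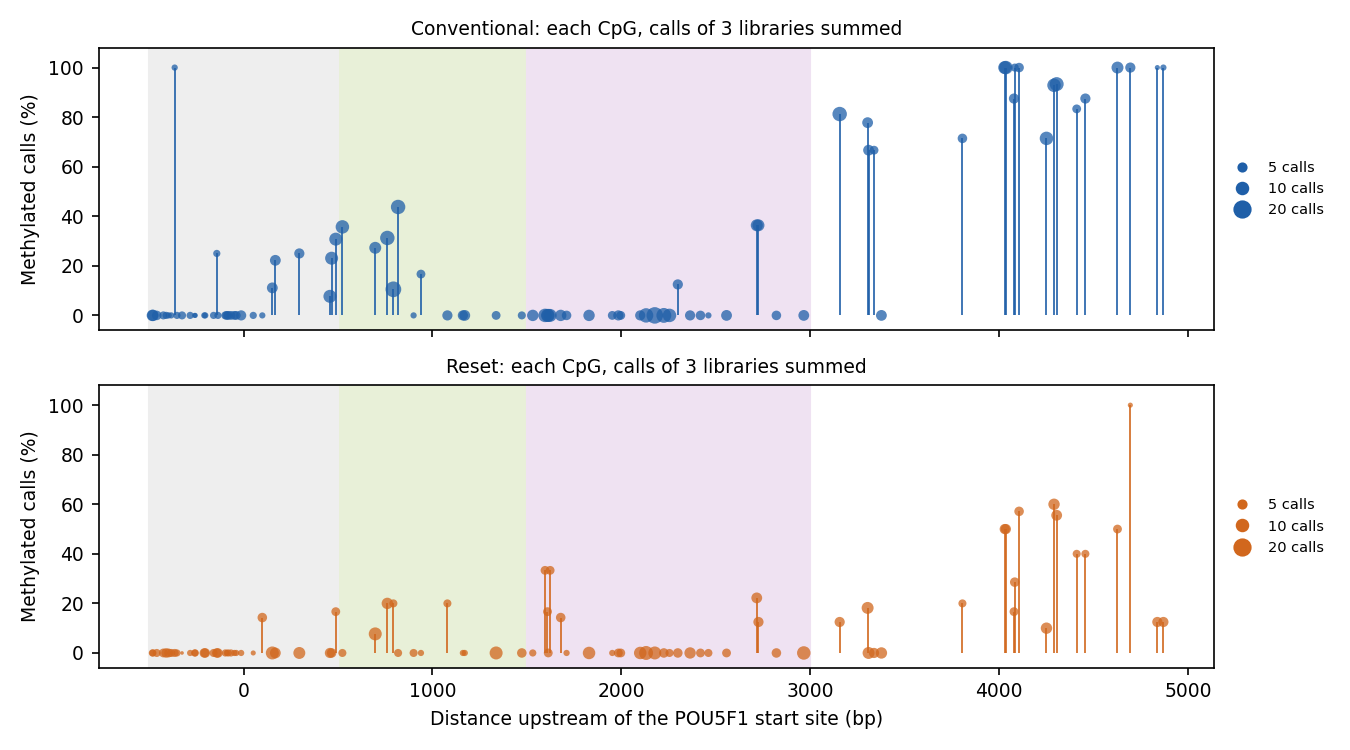
Percentage of methylated calls at each CpG from 499 bp downstream to 5000 bp upstream of the POU5F1 start, with the calls of 3 libraries summed and the area of a point set by its number of calls. Shading marks the promoter (grey), proximal (green) and distal (violet) spans; in Conventional cells the stretch from 1001 to 2500 bp holds 1 methylated call of 248, and the CpGs beyond 3001 bp, except the one at 3377 bp, are methylated at 66.7% or more.

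Beyond the enhancers, methylation of Conventional cells returned over a short distance. At the border tile, 3001 to 3500 bp upstream (5 CpGs), the Conventional libraries were at 76.5, 50.0 and 55.0% and the Reset libraries at 4.17, 0 and 12.5%. A single library with 8 calls kept it out of the main test, and with a minimum of 5 calls it was lower (adjusted p = 3.94e-06). The CpG 3377 bp upstream, at the outer end of the printed border stretch, had no methylated call in 9 Conventional or 10 Reset calls. The CpG 3156 bp upstream, nearer to the gene, had 13 of 16 and 1 of 8.

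Further out, both groups were methylated and Reset cells kept part of it. From 4001 to 4500 bp upstream (10 CpGs), Conventional libraries were at 89.7, 96.7 and 88.9% and Reset libraries at 37.5, 50.0 and 40.0% (difference -49.2 points, adjusted p = 5.25e-08). Its 4 neighbouring CpGs from 4501 to 5000 bp upstream had 24 of 24 methylated calls in Conventional and 7 of 24 in Reset cells. All genes tested in the 4001 to 4500 bp tile had a median of 91.1% and 33.9%.

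Taken as 1 region, the 501 to 5000 bp upstream (57 CpGs) fell in Reset cells. The Conventional libraries were at 28.7, 32.6 and 37.6% and the Reset libraries at 12.0, 11.5 and 16.4%, without overlap. The difference was -19.7 points (33.0% ± 4.47 against 13.3% ± 2.73, SD, n = 3, adjusted p = 1.59e-05), and 97.9% of 19548 genes were lower in this region. Of the 57 CpGs, 26 were lower and 6 higher in Reset cells, and most of the lower ones were the outer CpGs. From 3001 to 5000 bp upstream 18 of 20 CpGs were lower and 0 higher, and the level over all calls went from 83.7% to 27.6%. The tile from 501 to 1000 bp also changed, by -18.3 points. From 1001 to 2500 bp, where 1 of 248 Conventional calls was methylated and little could fall, 1 CpG was lower and 5 were higher.

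The difference between the levels of the upstream region and of the promoter was taken in each library. It was 17.2, 27.2 and 27.6 points in the Conventional libraries and 12.0, 8.49 and 16.4 points in the Reset libraries. The groups did not overlap, and the contrast shrank by 11.7 points on average (two-sided exact permutation test, p = 0.1, the smallest that 3 libraries against 3 can give). Over all genes tested, the median changes were -49.5 points upstream and -1.42 points at the promoter. The contrast itself was not taken for other genes. A promoter at 9.01% could not fall by as many points as the upstream region, and as a share of the Conventional level the order was the reverse, with 89.0% lost at the promoter and 59.7% in the upstream region.

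The gene body (chr6:31132114-31137959, 92 CpGs) fell in Reset cells to a level near that of the upstream region. The Conventional libraries had 107 of 204, 132 of 246 and 89 of 207 methylated calls and the Reset libraries 25 of 214, 24 of 245 and 34 of 233. Means were 49.7% ± 5.84 and 12.0% ± 2.42 (SD, n = 3), a difference of -37.7 points (adjusted p = 7.74e-11), and 97.8% of 19153 gene bodies were lower. A lower Conventional level was found in 5.60% of gene bodies.

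The body mirrored the upstream side, with an unmethylated stretch followed by a step. From 500 to 1999 bp downstream of the start, within intron 1, 0 of 193 Conventional and 0 of 170 Reset calls were methylated, which allows up to 1.55% and 1.76%. From 2000 to 2999 bp downstream 37 of 129 Conventional and 6 of 193 Reset calls were methylated. From 3000 to 3999 bp, still within intron 1, it was 66 of 79 Conventional and 0 of 67 Reset calls. This stretch of 7 CpGs thus went from 83.5% to 0 of 67 calls, which allows up to 4.48% (upper Wilson limit 5.42%). These stretches are parts of the body and not among the 14 regions, so their values are descriptions and were not tested.

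Towards the 3′ end Reset cells kept more. Exon 4 (8 CpGs) was at 91.7, 96.4 and 92.3% in the Conventional libraries and at 10.0, 57.1 and 42.9% in the Reset libraries. Exon 5, the last, had 53 of 54 methylated calls in Conventional cells and 13 of 27 in Reset cells, where Reset replicate 2 had no call. This end of the gene overlaps TCF19, a gene on the opposite strand (chr6:31126108-31134936), and strand-specific assignment does not apply to summed CpG calls. Exon 4 did not overlap between the groups (two-sided exact permutation test, p = 0.1, the smallest possible), and exons were not fitted across genes.

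The start of the longer transcript was methylated in Conventional cells and nearly unmethylated in Reset cells. This window, 500 bp to either side of its start at 10.0 kb upstream (chr6:31148009-31149008, 50 CpGs), was added after its values were seen. It was at 95.5, 90.1 and 92.4% in the Conventional libraries and at 3.95, 2.70 and 1.09% in the Reset libraries. The difference was -90.1 points (92.7% ± 2.71 against 2.58% ± 1.43, SD, n = 3), which is given as a description, with no test. The low level of Reset cells reached beyond the window. The 6 tiles from 8001 to 11000 bp upstream had 583 of 619 methylated calls in Conventional and 36 of 692 in Reset cells.

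The other gene starts within 20 kb of POU5F1 were given the same window. TCF19, 12.1 kb downstream, was at 1.18% ± 1.17 in Conventional and 0.707% ± 0.868 in Reset cells, and the ranges overlapped. CCHCR1, whose start lies beside it, was at 14.6% ± 7.57 and 4.42% ± 3.88, without overlap. PSORS1C3, which starts 7.22 kb upstream of POU5F1, was at 79.0% ± 11.8 and 32.9% ± 7.58 (SD, n = 3 for each), also without overlap. Those ranges were not tested beyond the exact permutation test, which gave p = 0.1 for CCHCR1 and PSORS1C3 and p = 0.7 for TCF19.

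Short sequence motifs were searched for on both strands of the promoter and the 5 kb upstream, as a description of where the CpG values lie. The octamer ATGCAAAT was not found in either window, and 25.6% of genes held it in 501 to 5000 bp upstream and 3.57% in the promoter. The SOX core ACAATG was found 277 to 272, 734 to 729 and 1318 to 1313 bp upstream, each time on the other strand. The middle match lies in the printed proximal stretch, as its reverse complement. The motif was held by 86.6% of upstream regions and 22.3% of promoters. The nuclear receptor element AGGTCA was found 43 to 38 and 1992 to 1987 bp upstream, and on the other strand 3528 to 3523 bp upstream. It was held by 96.8% of upstream regions and 36.5% of promoters. The GC box GGGCGG, which holds a CpG, was found 55 to 50 and 470 to 465 bp upstream, and on the other strand 4085 to 4080 bp upstream. It occurred in 77.0% of promoters and 65.2% of upstream regions. The CpG of the match at 470 to 465 bp had 3 of 13 methylated calls in Conventional and 0 of 7 in Reset cells. That at 4085 to 4080 bp had 5 of 5 and 2 of 7.

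The genes whose profile was most like that of POU5F1 were CCDC85B, DRGX, SSBP4, CHAF1A and DUSP8. Likeness was the root mean square difference over the Conventional and Reset levels of 6 windows, the promoter and the 5 testable tiles, among 2661 genes with enough calls. It was 4.16 points for CCDC85B, then 6.52, 7.47, 8.36 and 8.72 points. CCDC85B was at 0 and 0.654% in the 1501 to 2000 bp tile and at 94.0% and 39.1% in the 4001 to 4500 bp tile (Conventional and Reset). DRGX, a homeobox gene of sensory neurons, was at 2.03% and 13.1% in the 1501 to 2000 bp tile. In that tile SSBP4 was at 0 and 0.654%, CHAF1A at 23.8% and 7.60%, and DUSP8 at 8.33% and 4.80%.

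A list of 18 genes known as partners or targets of OCT4 was set beside POU5F1. Their promoters, all but those of DPPA2 and LEFTY1, were under 10% in Conventional cells. At that level, 10.8% of 12001 promoters of all genes were lower and 5.97% higher. Of the 18 promoters, 4 were lower and 0 higher, where 39.1% of all genes were lower and 4.28% higher. Their median difference was -0.358 points against -1.42 over all genes. The lower ones were DPPA2, a germline and pluripotency gene (79.3% ± 9.05 to 0.585% ± 1.01, adjusted p = 4.07e-09), LEFTY1, a Nodal inhibitor (28.1% ± 7.35 to 4.30% ± 2.70, adjusted p = 0.000284), TFCP2L1, a naive-state transcription factor (7.60% ± 3.12 to 1.01% ± 0.231, adjusted p = 0.00113), and FGF4, a growth factor (4.36% ± 0.822 to 0.892% ± 0.357, adjusted p = 0.00668). ESRRB, at 5.20% and 7.46%, did not pass the threshold.

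Their upstream regions were nearly all lower in Reset cells. Of the 18, 16 were lower and 0 higher in 501 to 5000 bp upstream, where 97.9% of all genes were lower and 1.20% higher, with a median difference of -50.4 points against -49.5 over all genes. The exceptions were SOX2, the HMG-box partner of OCT4 (9.95% and 9.87%), and TDGF1, a Nodal co-receptor (5.83% and 6.33%). Reset levels were lowest at DPPA4 (5.17% ± 0.769), at the homeobox gene NANOG (5.91% ± 3.04) and at ZFP42, which encodes REX1 (5.95% ± 0.918, SD, n = 3). They were highest at UTF1 (46.1% ± 3.22), SALL4 (40.9% ± 7.04) and TFCP2L1 (36.1% ± 1.94). With 33.0% and 13.3%, POU5F1 lay beside KLF4 (29.0% and 11.6%).

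**Figure D4:**
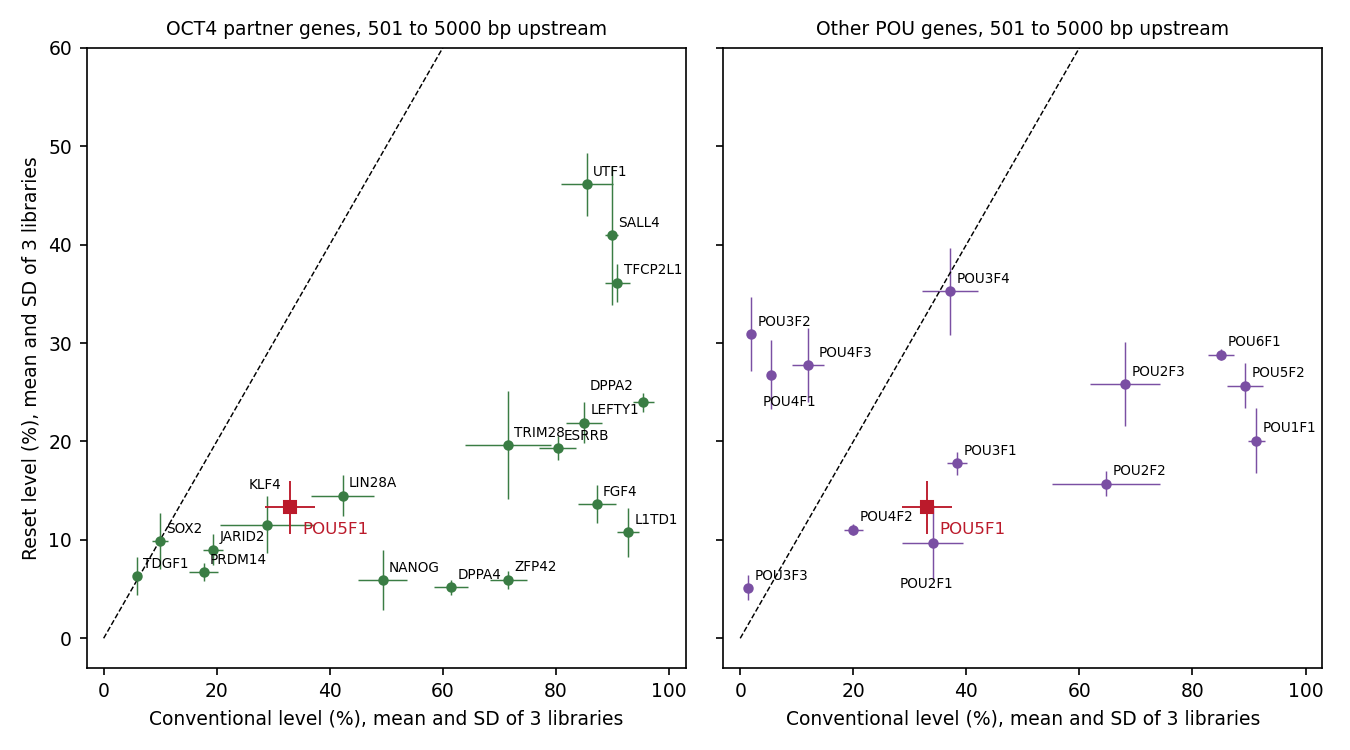
Conventional (x) against Reset (y) methylation level (%) of the 501 to 5000 bp upstream, with points as means and bars as SDs of 3 libraries, for 18 OCT4 partner genes (left), 13 other POU genes (right) and POU5F1 (red square in both). POU3F2, POU3F3, POU4F1 and POU4F3 lie above the dashed line of equal levels, and POU5F1 lies below it at 33.0% and 13.3%.

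The other POU genes, which share the DNA-binding domain of OCT4, moved in both directions. Of 13 promoters 3 were lower and 4 higher, where 39.1% of all promoters were lower and 4.28% higher. The count of higher promoters was 2 without Conventional replicate 3 and also without Reset replicate 2. Among the 12001 promoters of all genes under 10% in Conventional cells, 10.8% were lower and 5.97% higher. Of 13 upstream regions 8 were lower and 4 higher, where 97.9% of all upstream regions were lower and 1.20% higher. Of the 266 genes under 10% upstream in Conventional cells, 13.9% were lower and 63.2% higher. POU3F2, POU3F3 and POU4F1, which rose, were among those genes. The median changes of the 13 POU genes were -0.234 points for promoters and -20.6 points for upstream regions. The lower promoters were those of POU1F1, a pituitary factor (93.3% ± 4.09 to 13.2% ± 6.24, adjusted p = 2.08e-07), POU5F2 (90.8% ± 5.73 to 43.3% ± 4.58) and POU6F1 (2.84% ± 1.55 to 0.242% ± 0.418, SD, n = 3 for each).

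Promoters rose at POU3F4, a neural and inner ear factor (29.2% ± 8.28 to 55.1% ± 4.05, adjusted p = 0.000286), POU4F3, a hair cell factor (0.183% ± 0.317 to 6.30% ± 4.54, adjusted p = 0.00299), POU4F2 (0.517% ± 0.470 to 3.20% ± 0.595, adjusted p = 0.0346) and POU2F3 (7.85% ± 2.64 to 14.3% ± 4.01, adjusted p = 0.0382). POU3F4 lies on chromosome X and the others on autosomes. The Reset libraries of POU4F3 were spread, at 5.47, 2.24 and 11.2%, against 0, 0.549 and 0% in the Conventional libraries. Upstream regions rose at the neural factor POU3F2 (1.89% ± 0.547 to 30.9% ± 3.76, SD, n = 3), at the sensory neuron factor POU4F1 (5.46% ± 0.395 to 26.8% ± 3.49), at POU4F3 (12.0% ± 2.88 to 27.8% ± 3.74) and at POU3F3 (1.46% ± 0.426 to 5.12% ± 1.27). POU3F4, at 37.1% and 35.3%, had the highest Reset level and did not pass the threshold upstream, and POU6F1, which fell, was next to POU3F2 at 28.8%. The lowest Reset levels after POU3F3 were those of POU2F1 (9.73%) and POU4F2 (11.0%), both of which fell. POU5F1 therefore shared its direction with 8 of the 13 upstream.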

How the data were processed

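Bisulfite sequencing of 3 Conventional and 3 Reset libraries of H9 cells was analysed. The authors sonicated the DNA, ligated methylated adaptors, amplified after bisulfite treatment, and mapped the reads, after trimming by Trim Galore, against GRCh37 using Bismark and Bowtie2 (Bismark 0.9.0 per the labels). No removal of duplicate reads is described, so calls may include PCR copies. Per CpG cytosine, the authors deposited raw counts of methylated and of unmethylated calls, and positions were counted from 0 (99.8% at a CpG). Printed coordinates are counted from 1.

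Calls of both strands were summed over windows around the canonical transcript of each of 19819 genes (GENCODE 44 for GRCh37). A minimum of 10 calls per library was required of a window, and each kind of window was fitted once with a quasi-binomial model of the calls (F test of the likelihood ratio, R 4.3.3). Dispersions were squeezed with limma 3.58.1 and not allowed below 1. P-values were adjusted by Benjamini-Hochberg over all windows of a kind (threshold 0.05). The prior was estimated on windows with at least 3 methylated and 3 unmethylated calls in each group, after a test on simulated data had found few changed windows with a prior from all windows. The simulated calls varied between libraries by counting error only, whereas the prior dispersions of the data were 1.38 to 1.93. That test therefore does not show how many false calls the prior gives here. The prior from all windows is kept as an alternative. edgeR 4.0.16, Fisher's exact test, other minimum calls, shifted windows, a replicate block and leaving out each library were further alternatives. The member, the lists and the named genes (the largest promoter changes, the extreme Reset upstream levels and all rises of each list) were chosen with earlier results of these data known. Named genes outside that rule were chosen after their values were seen. Of the POU gene list, 1 gene is not reported here. Sequences were read from GRCh37.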

Additional observations from a re-analysis of the deposited data

How the results depend on the processing

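The falls of the 501 to 5000 bp upstream and of the gene body kept their direction and their call under every alternative run. The distal span stayed uncalled under every alternative. The 4001 to 4500 bp tile kept its direction and its call wherever it was tested. With at least 20 calls it could not be tested, as Reset replicate 2 had 18 calls there. Without each library in turn, the changes were -21.8 to -17.4 points upstream, -41.0 to -35.7 points in the body, -9.77 to -6.74 points at the promoter, -16.7 to -9.06 points in the proximal span and -0.94 to 2.81 points in the distal span. The promoter lost its call without 4 of the 6 libraries and kept it under all other alternatives. The proximal change of -12.5 points passed the threshold with edgeR and with Fisher's exact test. The count of 2 lower tiles (of 5 tested) became 3 of 7 with at least 5 calls, 1 with tiles shifted by 250 bp, 1 with the dispersion prior over all features (an alternative added after the data were seen, under which the 501 to 1000 bp tile had an adjusted p of 0.0624), and 1 to 2 without each library. With at least 20 calls 1 tile could be tested and the count was 0 (quasi-binomial model, unadjusted p = 0.383).

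Whether the same replicate numbers in both groups mark paired samples was not settled. The deviations of same-numbered libraries correlated at -0.008 to -0.002 over 19400 upstream regions, and those of differently numbered libraries at -0.004 to 0.007. The minimum was 30 calls, so counting error could hide a shared source. With the replicate block the count of lower tiles was 1, as the 501 to 1000 bp tile lost its call (adjusted p = 0.0553), and the promoter kept its call (adjusted p = 0.0342). The counts of lower genes in the lists stayed within 1.5 times their values under all alternatives, and so did those of higher genes, except that the 4 higher promoters of the other POU genes became 2 without Conventional replicate 3 or Reset replicate 2. At 2 to 3 calls per CpG, 4 of the 9 tiles could not be tested and single CpGs give descriptions only.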
